A study of Mus musculus and Homo sapiens with 34 samples.

Results

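Cytosolic ribosomal protein genes were described in RNA sequencing counts from lung adenocarcinoma cultures of mouse and human. The members were the protein-coding rows named Rps, Rpl or Rplp with a digit, or Rpsa, in either case of letters, without S6 kinases and without rows marked as pseudogenes. They came to 180 genes of the 48431 genes listed over both species, 90 of them in mouse and 90 in human. In each species 77 were standard ribosomal proteins, made up of 31 of the small subunit, 43 of the large subunit and 3 of the stalk (Rplp0, Rplp1 and Rplp2). The mouse members further held 5 paralogs (Rpl22l1, Rps27l, Rpl3l, Rpl7l1 and Rpl36al) and 8 rows of another kind. The latter were the binding protein Rps19bp1, the retrogene-like Rps27rt and Rps23rg1, and 5 rows with -ps names that the biotype column gave as protein-coding. The human rows held 8 paralogs and 5 rows of another kind, among them the read-through rows RPS10-NUDT3 and RPL17-C18orf32. The 77 standard members lay on 19 mouse chromosomes.

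The cytosolic ribosome is built from a small subunit, which reads the mRNA, and a large subunit, which joins the amino acids. Each ribosomal protein is needed in about the same number of copies, and the mRNAs are among the most abundant of a growing cell. Many begin with a C followed by a run of C and T bases, the 5′ terminal oligopyrimidine (TOP) tract, through which mTORC1 and its target LARP1 control their translation and stability. ERK signalling, which MEK switches on, also feeds into ribosome production, in part through MYC.

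The study had 34 libraries in 17 groups of 2 replicates, deposited as 7 tables of counts. Organoids of line 3154 carried p53frt, Rosa-FSF-CreERT2 and Hnf4aflox, alleles that respectively remove p53 after Flp, express a tamoxifen-activated Cre after Flp, and allow Hnf4a to be deleted, together with a further allele shared by every mouse group. In a 2-week experiment 3154 received 4-hydroxytamoxifen (4OHT, given in the labels as 2 mM) or ethanol for 2 days, and RNA was taken 2 weeks later. In a 48-hour experiment 3154 received ethanol or 4OHT, each with vehicle or 3 nM MRTX1133, a small-molecule inhibitor. There 48 hours is the labelled treatment time; the dose of 4OHT, and whether it was started together with MRTX1133, are not given in the sources used here. Organoids of line 1027B and the cell line 3311 carried the same p53, CreERT2 and further alleles with Foxa1flox and Foxa2flox in place of the Hnf4a allele. For 48 hours 1027B received vehicle, 10 nM trametinib (an inhibitor of the kinases MEK1 and MEK2) or 20 nM MRTX1133, and 3311 received vehicle or 50 nM trametinib. Among human lung adenocarcinoma cell lines, H358 and H1651 were each kept for 48 hours with vehicle or with trametinib at 20 nM. H1651 with a lentiviral HNF4α overexpression construct was kept with or without 1 µg/mL doxycycline for 7 days. Every mouse group carried the p53 alleles, and no group received 4OHT without Hnf4aflox, so an effect of 4OHT or of active Cre and an effect of Hnf4a deletion cannot be told apart. Each experiment used 1 line, and the labels do not say that replicates were separate cultures, so p values measure the spread between these libraries. With 2 libraries against 2 the smallest p of an exact permutation test is 0.3333, and every p below comes from a model fitted over all genes of a table.

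Libraries held between 19692517 and 45284286 counts, of which 710140 to 2382507 fell on members. Expression is given as CPM, counts per 1000000 counts of the library after TMM scaling. The deleted gene followed its labels in 3154: Hnf4a lay at 315 to 427 CPM with ethanol and at 53.4 to 67.9 CPM after 4OHT in the 2-week experiment. In the 48-hour experiment it lay at 221 to 230 CPM with ethanol and vehicle and at 180 to 184 CPM with ethanol and MRTX1133. After 4OHT it lay there at 49.4 to 50.3 CPM with vehicle and at 25.3 to 29.8 CPM with MRTX1133. In 1027B Hnf4a lay at 446 to 471 CPM with vehicle, 200 to 254 CPM with trametinib and 242 to 297 CPM with MRTX1133. In 3311 the groups overlapped, at 374 to 479 CPM with vehicle and 263 to 390 CPM with trametinib. The part of Hnf4a levels under the inhibitors in the results was not tested. HNF4A was at 35.9 to 47.0 CPM without and at 94.3 to 96.7 CPM with doxycycline in H1651. It was at 0 in all H358 libraries. The vehicle and trametinib libraries of H1651 overlapped for HNF4A, at 38.1 to 58.3 and 33.3 to 58.9 CPM. The 5 epithelial markers summed to between 3599 and 10904 CPM in all libraries. In H1651 that sum was nearly all KRT8 and KRT18, with EPCAM at 0.992 to 3.81, KRT19 at 6.41 to 8.69 and CDH1 at 34.7 to 84.7 CPM. Over all libraries the lung marker Nkx2-1 ran from 24.3 to 431 CPM, and the immune markers, of which 3 to 5 of 6 were listed, summed to between 1.70 and 44.7 CPM. Ptprc, the pan-leukocyte marker of that list, was at or below 2.52 CPM. Of the 6 fibroblast markers, 1 or 2 were listed in 3154 and 1027B, at a summed 0.115 to 1.69 CPM, and 5 in 3311, at 17.3 to 26.2 CPM. All 6 were listed in the human lines, at 33.4 to 148 CPM in H358 and 317 to 579 CPM in H1651, where COL3A1 alone was at 240.5 to 448 CPM.

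Ribosomal protein mRNA made up between 2.84% and 7.08% of all counts, with a median of 4.55% over the 34 libraries. In the 48-hour 3154 experiment the share was 5.81% and 7.08% in the vehicle libraries and 3.97% and 3.83% in the vehicle libraries that had received 4OHT. With MRTX1133 it was 5.60% and 6.13% with ethanol and 3.87% and 3.32% with 4OHT. All 4 libraries with 4OHT lay below all 4 with ethanol. In the 2-week experiment the share was 5.60% and 5.87% with ethanol and 5.12% and 4.93% after 4OHT, again without overlap.

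Trametinib gave the lowest shares in 3311, where the vehicle libraries had 5.94% and 4.85% and the treated ones 2.84% and 3.24%. In 1027B the vehicle libraries had 4.55% and 4.91%, the trametinib libraries 3.28% and 3.64%, and the MRTX1133 libraries 4.02% and 4.56%. The trametinib range lay below both others, and the MRTX1133 range overlapped that of vehicle. H358 went from 5.95% and 6.31% with vehicle to 4.81% and 4.64% with trametinib, without overlap. In H1651 the ranges overlapped, with 4.19% and 4.43% against 4.00% and 4.55% for trametinib, and 3.67% and 3.87% against 3.74% and 4.29% for doxycycline. As ratios of group means, the share with treatment was 0.605 times its vehicle after 4OHT at 48 hours, 0.877 times at 2 weeks, 0.564 times in 3311, 0.731 times in 1027B and 0.771 times in H358 with trametinib. In such bulk libraries, fewer cells of a type and less RNA per cell cannot be told apart.

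**Figure D1:**
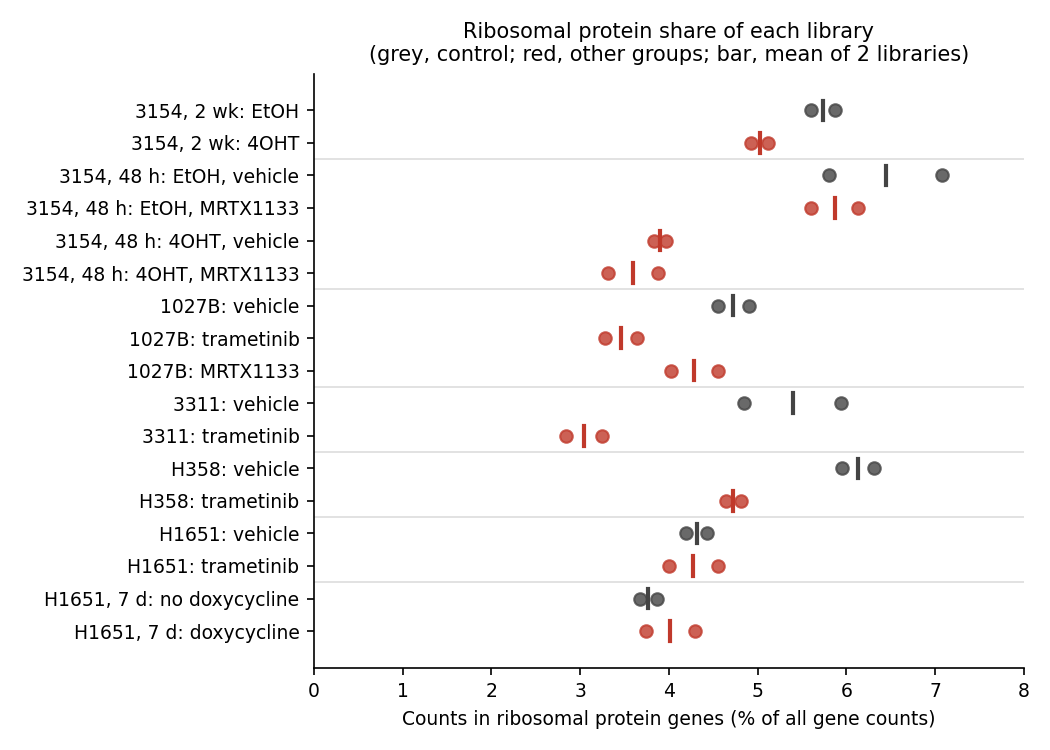
Share of all counts that fell on cytosolic ribosomal protein genes, in percent along the x axis, for each of the 34 libraries (points, grey for controls and red for the other groups), with 1 group per line and a bar at the mean of its 2 libraries. The 4OHT groups of 3154 and the trametinib groups of 1027B, 3311 and H358 lie below their vehicle libraries, and those of H1651 overlap them.

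Loss of Hnf4a in 3154 at 48 hours came with lower mRNA of nearly the whole set. Of 87 members tested, 81 fell and 0 rose at an adjusted p under 0.05 (edgeR quasi-likelihood test, Benjamini-Hochberg over 15458 genes), where 15.7% of all genes tested fell and 15.3% rose. The members' median log2 change was -0.93, and that of all genes 0.01. All 31 small subunit genes, 42 of 43 large subunit genes and all 3 stalk genes fell, with median log2 changes of -0.92, -0.95 and -0.80. The standard member that did not pass was Rpl41, at -0.59 (adjusted p = 0.0552), which encodes the smallest protein of the ribosome. The 77 standard genes spanned -1.27 to -0.59 with an SD of 0.14 across genes. The median standard error of a single gene was also 0.14. That error comes from libraries all these genes share, so it does not measure the spread to be found between genes. Vehicle and 4OHT libraries did not overlap for 84 members, where this held for 32.5% of all genes.

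Rpl3, a large subunit protein close to the site where amino acids are joined, had the lowest value of the standard set. Its gene lies at chr15:80077791-80091868 on the minus strand of GRCm38. It measured 1359 and 1362 CPM with vehicle and 580.5 and 548 CPM after 4OHT, a log2 change of -1.27 (SE 0.13, adjusted p = 0.000548). Rpl5, which with Rpl11 and 5S rRNA forms the particle that binds MDM2 when ribosome assembly fails, went from 2101 and 2102 to 926 and 876 CPM (log2 change -1.22, SE 0.11, adjusted p = 0.000438). Its partner Rpl11 went from 619.6 and 735 to 402 and 385 CPM, at -0.78 (SE 0.14, adjusted p = 0.00523). For each of these genes both 4OHT libraries lay well below both vehicle libraries.

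Among small subunit genes, Rps6, the substrate of the S6 kinases (chr4:86854660-86857412, minus strand), went from 877 and 923 to 444 and 408 CPM. Its log2 change was -1.08 (SE 0.12, adjusted p = 0.000718). Rps19, the gene most often mutated in Diamond-Blackfan anaemia, went from 492 and 572 to 285 and 283 CPM, at -0.91 (SE 0.14, adjusted p = 0.00278). Rpsa, also known as the laminin receptor precursor, fell less, from 1845 and 2220.4 to 1270.3 and 1199 CPM (-0.72, SE 0.14). Rps27a, made as a fusion with ubiquitin, fell by 0.83 and Rpl13a, linked to a translational silencing complex of interferon-treated cells, fell by 1.16 on the log2 scale. Rplp0, the stalk base that holds Rplp1 and Rplp2 (chr5:115559467-115563727), was the most abundant of these and fell by 0.71 (SE 0.12, adjusted p = 0.00424), from 2901 and 3296 to 1943 and 1852 CPM. Rplp1 and Rplp2 fell by 0.92 and 0.80 and Rpl29, a heparin-binding large subunit protein, by 0.86. The 2 vehicle libraries differed from each other by more than the 4OHT libraries did for most of these genes, replicate 2 being the higher. Leaving out 4OHT replicate 1 gave 64 calls and leaving out 4OHT replicate 2 gave 57, and in the latter case Rpl11, Rplp0, Rpsa, Rplp2, Rps27a and Rpl29 missed the threshold, with adjusted p from 0.0518 to 0.0971.

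The same deletion under MRTX1133 gave 78 lower and 0 higher calls of 87, against 14.5% and 13.2% of all genes, with a median log2 change of -0.86. The groups did not overlap for 83 members, against 33.9% of all genes. All 31 small subunit, 41 of 43 large subunit and all 3 stalk genes fell. Rpl41 at -0.58 (adjusted p = 0.0622) and Rpl37a at -0.56 (adjusted p = 0.0682) were the standard genes that did not pass. Among the members that passed, Rpl13a had the lowest value after Rpl22l1, with 358.1 and 345 CPM under MRTX1133 and ethanol and 161 and 142 CPM under MRTX1133 and 4OHT (-1.21, SE 0.12, adjusted p = 0.000579). Rpl3 fell by 1.14, Rpl5 by 1.09, Rps6 by 1.07 and Rplp0 by 0.72 on the log2 scale. Leaving out replicate 2 of the 4OHT group with MRTX1133, the library with the lowest share of this table, left 47 lower calls. The share of counts on mitochondrially encoded genes, a sign of RNA quality, was 0.930% and 1.03% with ethanol and 1.39% and 1.38% with 4OHT under MRTX1133, and its part in this result was not tested.

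Whether the deletion acted differently with and without MRTX1133 was tested as an interaction. It gave 0 calls among 87 members with edgeR and with DESeq2, 0 members at an unadjusted p under 0.05 (7.44% of all genes), and 0% calls over all genes. The median interaction was 0.09 on the log2 scale and the smallest adjusted p of a member was 0.737.

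At 2 weeks few ribosomal protein genes passed the unpaired edgeR test, while most values lay below 0. With edgeR Rpl22l1 and Rpl3 passed, 2 lower and 0 higher of 87, where 5.78% of all genes fell and 4.03% rose. The members' median log2 change was -0.34 against 0.02 for all genes, 76 of the 77 standard genes were below 0, and 47 members had an unadjusted p under 0.05, as did 28.7% of all genes. Ethanol and 4OHT libraries did not overlap, with 4OHT lower, for 78 members, against 30.3% of all genes. Rpl3 measured 957 and 1096 CPM with ethanol and 697 and 620.4 CPM after 4OHT (-0.64, SE 0.14, adjusted p = 0.0447). With the replicate number as a block the count was larger and 16.8% of all genes fell, as given under how the results depend on the processing. DESeq2 called 13 members lower, and 10.1% of all genes. The edgeR count depended on single libraries: leaving out ethanol replicate 1 gave 14 calls, leaving out ethanol replicate 2 gave 1, and leaving out either 4OHT replicate gave 0.

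Several members that fell in the 48-hour experiment did not pass in the 2-week experiment. Rps6 was at 668 and 750.4 CPM with ethanol and at 531 and 501 CPM after 4OHT (-0.46, adjusted p = 0.0793), and Rpl5 at 1348 and 1549 against 981 and 1036 CPM (-0.52, adjusted p = 0.0658). Rplp0 overlapped between the groups, at 2653 and 2595 CPM against 2832 and 2380.3 CPM (-0.01, adjusted p = 0.972), as did Rpsa (-0.03) and Rps2 (0.13), which shapes the entry of the mRNA channel. Rps2 was the standard gene above 0. The experiments were separate tables with 4OHT schedules that are only partly given, so they are no time course, and the sizes of their changes were not tested against each other. The mitochondrially encoded share was 1.69% and 1.70% with ethanol and 2.15% and 2.21% after 4OHT at 2 weeks, and 1.03% and 1.04% against 1.02% and 1.15% at 48 hours. The immune markers summed to 18.6 and 44.7 CPM with ethanol and to 10.1 and 13.5 CPM after 4OHT at 2 weeks. Over these libraries Csf1r alone ran from 3.44 to 38.1 CPM and Cd68 from 5.11 to 7.75 CPM. Ptprc and Itgam stayed at or below 0.375 CPM there. The part of the mitochondrially encoded share and of the immune sum in these results was not tested.

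**Figure D2:**
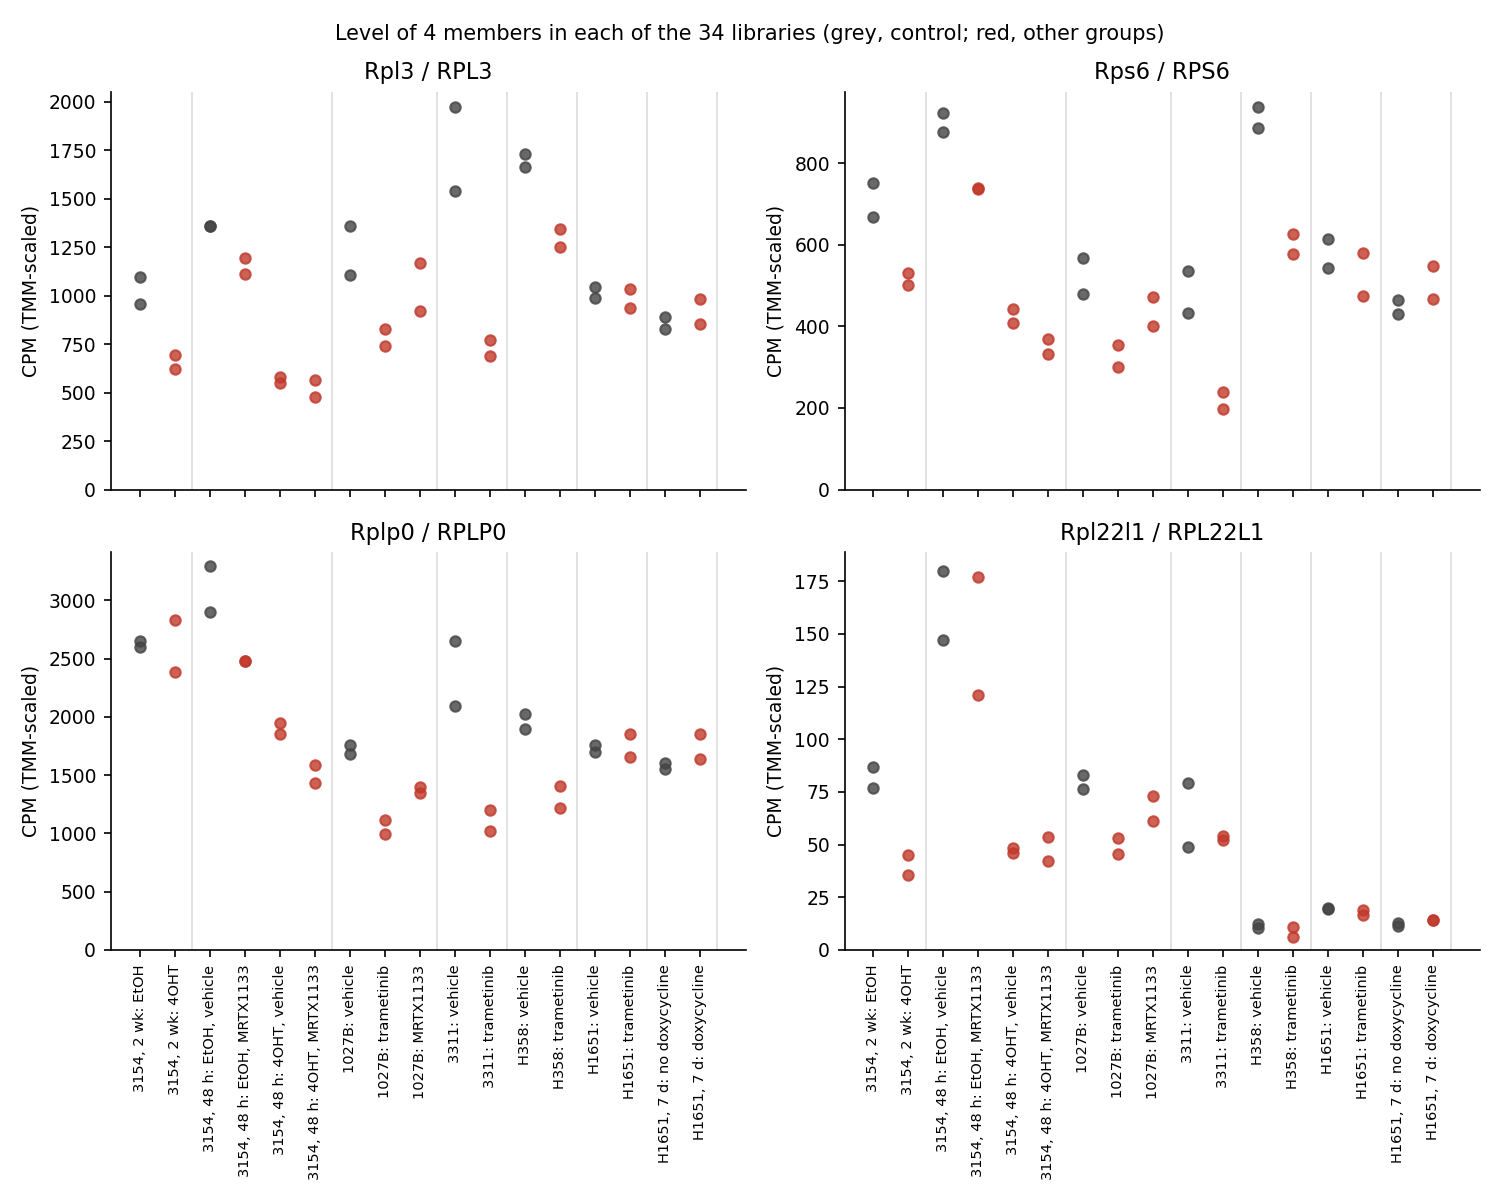
TMM-scaled CPM of Rpl3, Rps6, Rplp0 and Rpl22l1 (y axes from 0, 1 panel per gene) in each of the 34 libraries, by group along the x axis, with controls in grey and the other groups in red. In 3154 at 48 hours and in 3311 the treated libraries of Rpl3, Rps6 and Rplp0 lie below the vehicle libraries, and Rplp0 overlaps in 3154 at 2 weeks.

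MRTX1133 alone took no member of 3154 past the test in the fit of all 4 groups. With ethanol, 0 of 87 members were called by edgeR or DESeq2, where 0.0323% of all genes fell and 0.317% rose, and 14 members had an unadjusted p under 0.05, against 11.8% of all genes. All 77 standard genes were below 0, with a median log2 change of -0.23, and 55 members did not overlap, against 15% of all genes. Rplp0 measured 2901 and 3296 CPM with vehicle and 2476 and 2479.6 CPM with MRTX1133 (-0.32, adjusted p = 0.347). After 4OHT, 0 of 87 were called by either tool, where 2.54% of all genes fell and 2.1% rose, with 8 at an unadjusted p under 0.05 (20.4% of all genes), a median of -0.14 and 46 members lower without overlap, against 33.3% of all genes. With only these 2 groups in the fit, 8 members were called lower, against 13.4% of all genes. In the fit of all groups 72 of the 77 standard genes were below 0, and Rps6 was at 444 and 408 CPM with 4OHT and at 369 and 332 CPM with MRTX1133 added (-0.28, adjusted p = 0.219).

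Trametinib lowered ribosomal protein mRNAs in 1027B organoids. Of 87 members tested 61 fell and 0 rose, against 13.2% and 13.5% of all genes, and the median log2 change was -0.54 against -0.01. The counts were 22 of 31 small subunit, 34 of 43 large subunit and 3 of 3 stalk genes, with medians of -0.58, -0.53 and -0.70. Vehicle and trametinib libraries did not overlap for 80 members, against 34.3% of all genes. The size of the count rested on each library of the comparison: it was 36 without vehicle replicate 1, 7 without vehicle replicate 2, 5 without trametinib replicate 1 and 34 without trametinib replicate 2, while the median stayed between -0.64 and -0.42. The 5 epithelial markers summed to 9167 and 9024 CPM with vehicle and to 7415 and 8257 CPM with trametinib; the part of this in the result was not tested.

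The stalk protein Rplp2 (chr7:141447370-141451585) had the lowest value, with 247 and 317 CPM against 119.7 and 173 CPM (-0.95, SE 0.27, adjusted p = 0.0403). Rpl12, which sits at the base of the stalk (chr2:32961559-32965345), was tighter, with 1486 and 1477 against 775 and 814 CPM (-0.90, SE 0.11, adjusted p = 0.00258). Rps2 went from 2174 and 1859 to 1104 and 1137 CPM (-0.85), Rplp0 from 1682 and 1756 to 997 and 1118 CPM (-0.70) and Rps6 from 480.2 and 567 to 299 and 354 CPM (-0.68, adjusted p = 0.0164). Rpl3 passed here too, at -0.65 (SE 0.17, adjusted p = 0.0295). Of these, Rpl12 passed with any 1 library left out, whereas Rplp2, Rplp0, Rps6 and Rpl3 did not pass without trametinib replicate 1. Among the 18 standard genes that did not pass, Rps27, a zinc-finger protein of the small subunit, was at 319 and 429 CPM with vehicle and 315 and 393 CPM with trametinib (-0.08, adjusted p = 0.81). Rps19 overlapped as well (-0.22, adjusted p = 0.443).

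MRTX1133 in 1027B gave 0 calls of 87 with edgeR, where 3.26% of all genes fell and 3.01% rose, and 1 lower with DESeq2, where 5.75% fell. All 77 standard genes were below 0, the median was -0.24, 12 members had an unadjusted p under 0.05 (23.2% of all genes), and 54 were lower without overlap, against 25.6% of all genes. Same-numbered 1027B libraries deviated together, and with the replicate number as a block 54 members were lower, against 12.7% of all genes. Rplp0 was at 1345 and 1396 CPM and Rpl12 at 1134 and 1189 CPM with MRTX1133, between the vehicle and the trametinib libraries. Set directly against trametinib, 0 members and 0% of all genes were called with edgeR. An unadjusted p under 0.05 was found for 32 members and 16.2% of all genes, and DESeq2 called 4 members and 2.81% of all genes higher. The median was 0.31 higher with MRTX1133, 64 members were higher without overlap, against 24.3% of all genes, and 62 members were higher with the replicate block, against 7.75% of all genes. The drugs were given at 20 nM and 10 nM, so this compares the treatments as given.

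In the 3311 cell line 50 nM trametinib lowered 79 of 89 members and raised 1, where 19.6% of all genes fell and 19.4% rose. All 77 standard genes fell, from -0.60 for Rpl21 (adjusted p = 0.042) to -1.39 for Rpl12, and the median over all members was -0.95 against 0.01 for all genes. Small subunit genes had a median of -0.99, large subunit genes -0.92 and stalk genes -1.07. The groups did not overlap for 83 members, against 36.6% of all genes. The row with the lowest value was the retrogene-like Rps23rg1 (chr8:3567990-3584939), at 3.79 and 2.91 CPM with vehicle and 1.00 and 1.03 CPM with trametinib (-1.72, SE 0.37, adjusted p = 0.0117). Rpl12 went from 1229 and 946 to 375 and 456 CPM (-1.39, SE 0.20, adjusted p = 0.00274), and Rpsa from 888 and 689 to 289.9 and 355 CPM (-1.29, SE 0.19, adjusted p = 0.00319). Rpl3 fell by 1.27, Rps27a by 1.23, Rps6 by 1.15 (536 and 433 against 197 and 238 CPM) and Rplp0 by 1.10 on the log2 scale. Vehicle replicate 1 was the higher of its pair for these genes. The mitochondrially encoded share was 1.44% and 1.45% with vehicle and 3.12% and 3.35% with trametinib. The immune markers summed to 9.55 and 15.7 CPM against 21.8 and 28.6 CPM, with Ptprc at 0 in all 4 libraries. Over these libraries Csf1r ran from 4.68 to 27.7 CPM and Cd68 from 0.951 to 4.87 CPM. The part of the mitochondrially encoded share and of the immune sum in the result was not tested.

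In H358 trametinib lowered 77 of 88 members and raised 1, where 23.2% of all genes fell and 23.5% rose. The median log2 change was -0.46, against 0.02 for all genes, and 70 of the 77 standard genes fell: 30 small subunit, 37 large subunit and 3 stalk genes. The groups did not overlap for 84 members, against 37.3% of all genes. RPS2 went from 2531 and 2754 to 1640.0 and 1498 CPM (-0.75, SE 0.11, adjusted p = 0.000919), RPS6 from 885 and 937 to 577 and 625 CPM (-0.60, SE 0.10, adjusted p = 0.00209) and RPLP0 from 1896 and 2021 to 1408 and 1216 CPM (-0.58). RPL10, at 995 and 993 against 992 and 863 CPM (-0.10, adjusted p = 0.48), and RPL13A, at -0.23 (adjusted p = 0.0987), were among the 7 standard genes that did not pass. RPL17 was the standard gene with the lowest value (-0.96), and its read-through row RPL17-C18orf32, at 0.621 and 0.477 against 0.215 and 0.118 CPM, can share reads with it. RPS10-NUDT3 (7.58 and 10.7 against 1.37 and 3.02 CPM, -2.11, SE 0.35, adjusted p = 0.00188) is a read-through row of the same kind. In the same libraries the fibroblast list summed to 33.4 to 37.7 CPM with vehicle and 119 to 148 CPM with trametinib, nearly all of it COL1A1, with 6 of 6 genes listed and COL1A2 and DCN at 0 in 2 libraries each. The epithelial markers went from 5334 to 5531 down to 3599 to 3880 CPM; the part of either in the result was not tested.

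In H1651 neither treatment took a member past the unpaired edgeR test. With trametinib 0 of 85 members were called by edgeR or DESeq2, 0 had an unadjusted p under 0.05 (3.27% of all genes) and 0% of all genes were called with edgeR. The median was -0.04, and RPS6 overlapped at 542 and 615 against 475 and 581 CPM (-0.13, SE 0.14, adjusted p = 0.999). With doxycycline 0 of 86 were called with edgeR, where 0.386% of all genes fell and 1.04% rose. An unadjusted p under 0.05 was found for 3 members and 12.7% of all genes, and DESeq2 called 1 member and 1.69% of all genes higher. There 76 of the 77 standard genes were above 0, with a median over all members of 0.11, and 19 members were higher without overlap, a share near the 21.4% of all genes. The lowest adjusted p was that of RPS27L, 0.0584, at 75.1 and 73.2 CPM without and 94.8 and 97.6 CPM with doxycycline (0.38, SE 0.07). With the replicate number as a block members were called higher with doxycycline, beside 9.28% of all genes. That count is given under how the results depend on the processing.

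**Figure D3:**
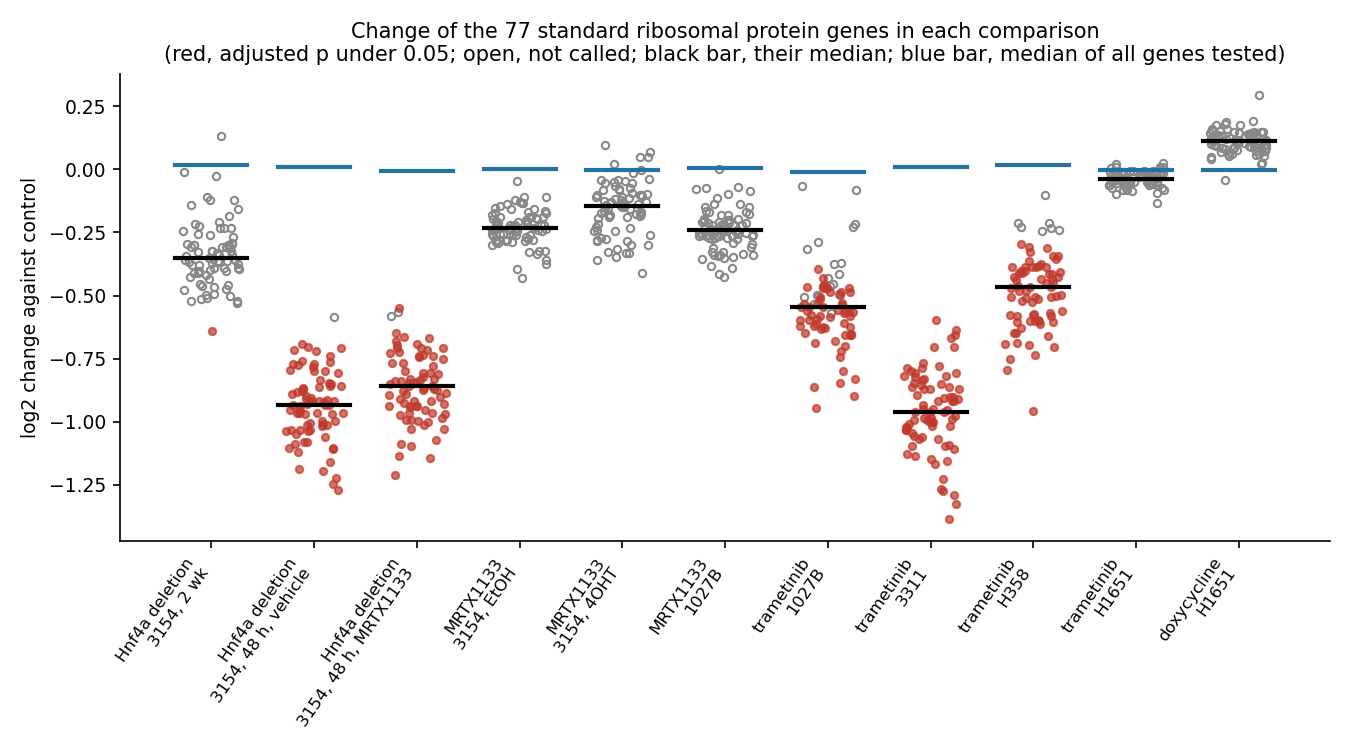
Log2 change against the matching vehicle of each standard ribosomal protein gene (points), by comparison, with their median as a black bar and that of all genes tested as a blue bar; red points passed an adjusted p under 0.05 and open points did not. The medians are -0.93 and -0.86 for the deletion at 48 hours, -0.35 at 2 weeks, -0.55, -0.96 and -0.47 for trametinib in 1027B, 3311 and H358, and -0.04 for trametinib in H1651.

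Counted over the 8 mouse comparisons with a matching vehicle, 78 of 90 members were lower in 3 or more, against 9.17% of the 17837 genes tested. Of these members 58 were lower in 4, 19 in 3, and Rpl3 alone in 5. These comparisons share control libraries within a table. Of the human members, 77 were lower in 1 of 3 comparisons, all of them in H358. Over the mouse comparisons, the 3 non-member genes nearest to the members' median pattern were Rack1 (root mean square distance 0.076 on the log2 scale), Fau (0.094) and Rap1gds1 (0.097), of 3180 protein-coding genes with at least 50 CPM whose median distance was 0.624. Rack1, a scaffold on the small subunit, and Fau, a ubiquitin-like fusion that yields a small subunit protein, are themselves ribosome parts with other names. Standard members lay at a median distance of 0.100. The 3 genes, of which Rap1gds1 is no ribosome part, were chosen as the nearest of the 3180, so their nearness was set by that choice.

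The paralogs did not all follow. Rpl22l1, the partner of the large subunit protein Rpl22 (chr3:28805436-28807424 and chr4:152325742-152334071), had the largest fall of any member in both experiments with Hnf4a deletion. At 48 hours it went from 147 and 180.0 to 48.3 and 46.0 CPM (-1.79, SE 0.22, adjusted p = 0.0011), and under MRTX1133 from 121 and 177 to 53.7 and 42.3 CPM (-1.63). At 2 weeks it went from 77 and 86.6 to 45.1 and 35.6 CPM (-1.02, SE 0.17, adjusted p = 0.0226). Rpl22 itself changed by -0.96 and -0.82 at 48 hours and by -0.43 at 2 weeks, the last not past the test (adjusted p = 0.12). Whether the paralog and its partner differed was not tested. With trametinib Rpl22l1 fell in 1027B (76.4 and 83.2 against 45.5 and 52.9 CPM, -0.70, adjusted p = 0.0116) and overlapped in 3311 (79.0 and 48.8 against 54.2 and 52.1 CPM, -0.27, adjusted p = 0.377), where Rpl22 fell by 0.95. RPL22L1 in H358 was at 10.5 and 12.2 against 6.29 and 10.9 CPM (-0.42, adjusted p = 0.209).

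Rps27l, a p53 target and partner of Rps27 (chr9:66946086-66949516), was called in no mouse comparison. It was at 77 and 115 CPM with vehicle and 77.9 and 72.6 CPM after 4OHT at 48 hours (-0.35, adjusted p = 0.291), while Rps27 fell from 419 and 458 to 189 and 193 CPM. In 3311 it was at 79.4 and 70.6 against 60.2 and 65.5 CPM (-0.25, adjusted p = 0.179). Human RPS27L was the member that rose in H358, from 22.6 and 22.7 to 38.5 and 41.2 CPM (0.82, SE 0.12, adjusted p = 0.000934), beside RPS27 at 790.4 and 824 against 748 and 630.3 CPM (-0.23, adjusted p = 0.138).

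Rpl7l1, which works in assembly of the large subunit (chr17:46773907-46782672), was the member that rose in 3311, from 50.0 and 67.1 to 83.5 and 94.9 CPM (0.61, SE 0.18, adjusted p = 0.0323). Without vehicle replicate 1 its adjusted p was 0.0983, and without trametinib replicate 2 it was 0.119. Its partner Rpl7 fell there, from 1314 and 1045 to 610.3 and 701 CPM. After the deletion at 48 hours Rpl7l1 overlapped, at 78.6 and 116 against 105 and 102 CPM (0.09, adjusted p = 0.749), and in H358 RPL7L1 fell from 246 and 275 to 178 and 209.8 CPM (-0.43, adjusted p = 0.0186, or 0.0749 without trametinib replicate 1 and 0.0758 without vehicle replicate 2). Rpl36al went with Rpl36a, at -0.82 and -0.97 at 48 hours and -0.83 and -1.06 in 3311. Rpl3l, the form of Rpl3 known from heart and skeletal muscle, was near its floor at 0.321 to 1.22 CPM in the 48-hour table, and was called there with vehicle (-1.41, SE 0.40, adjusted p = 0.032) but not with DESeq2 (adjusted p = 0.0914) or without replicate 2 of the vehicle group (0.136). In H358 RPL3L, at 0.647 and 0.567 against 0.129 and 0.118 CPM, had the lowest value of any member (-2.26, SE 0.44, adjusted p = 0.00399), at a level below 1 CPM in every library. RPL39L, known from testis and from tumours, fell from 34.5 and 38.1 to 13.6 and 16 CPM (-1.30, SE 0.14, adjusted p = 0.000225), beside -0.36 for RPL39, and RPL26L1 overlapped (-0.28). Rps19bp1, which binds Rps19 and is no part of the ribosome, was called in no comparison.

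**Figure D4:**
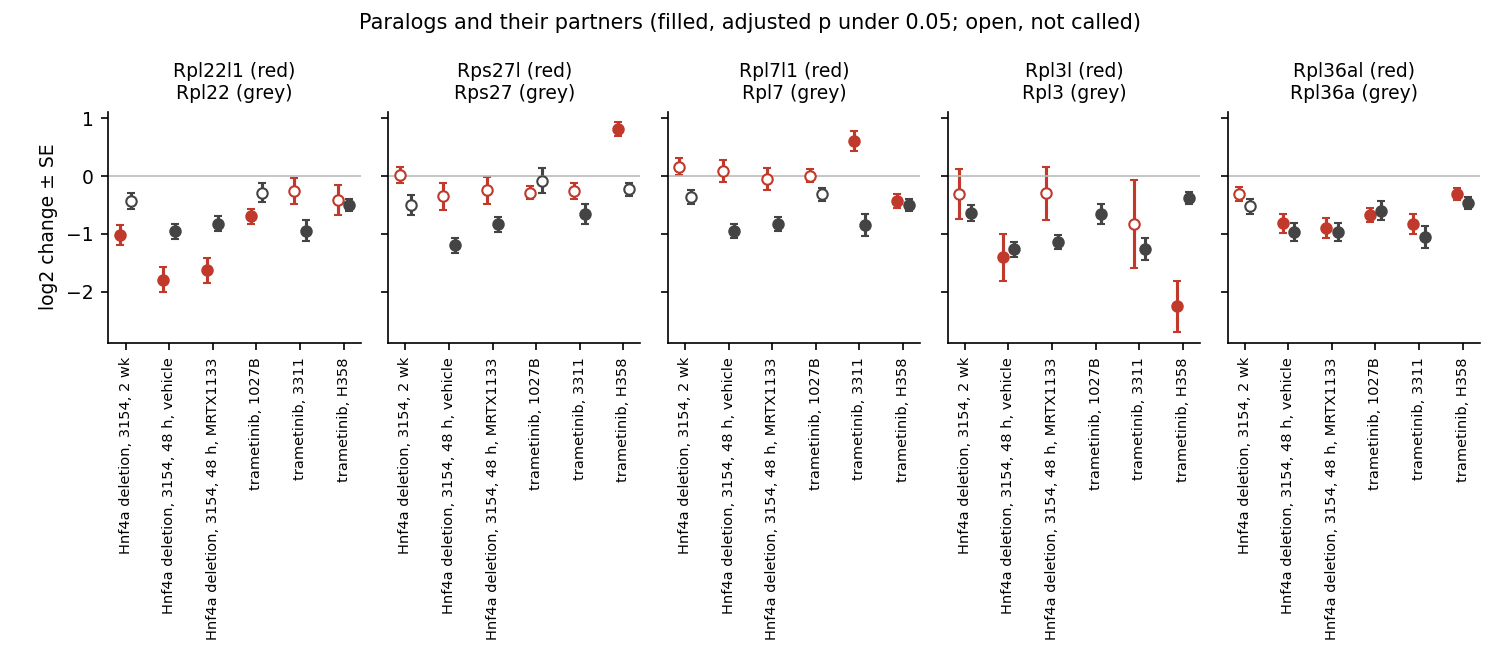
Log2 changes against vehicle, with standard errors as bars, of 5 paralogs (red) and their standard partners (grey) in 6 comparisons; filled points passed an adjusted p under 0.05. Rpl22l1 lies below Rpl22 after the Hnf4a deletion, Rps27l lies between -0.35 and 0.02 in mouse and at 0.82 in H358, and Rpl7l1 lies at 0.61 in 3311.

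The order of the 77 standard genes by size of change was compared between experiments. It was alike in the 2 separate Hnf4a deletion experiments, with Spearman's rho of 0.69 (Pearson's r 0.72) between 2 weeks and 48 hours with vehicle. It was also alike between the 2 mouse trametinib experiments, with a rho of 0.59 (r 0.60) between 1027B and 3311. Between deletion and trametinib in 1027B the rho was -0.30 for deletion at 2 weeks, -0.08 at 48 hours with vehicle and 0.08 at 48 hours under MRTX1133. Between deletion and trametinib in 3311 it was -0.12, -0.07 and 0.29 in the same order. Trametinib in H358 had a rho of 0.00 with 1027B and 0.06 with 3311. These are descriptions over 77 genes that share libraries within each experiment, with no test. Rpl3 was low in each mouse experiment, whereas Rps27 had -1.19 after the deletion at 48 hours, -0.66 in 3311 and -0.08 in 1027B, and Rps2 had -0.77, -1.28 and -0.85. The size of the change was nearly unrelated to the level of the gene (rho from -0.14 to 0.09), and its rho with transcript length ran from -0.31 to -0.04.

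**Figure D5:**
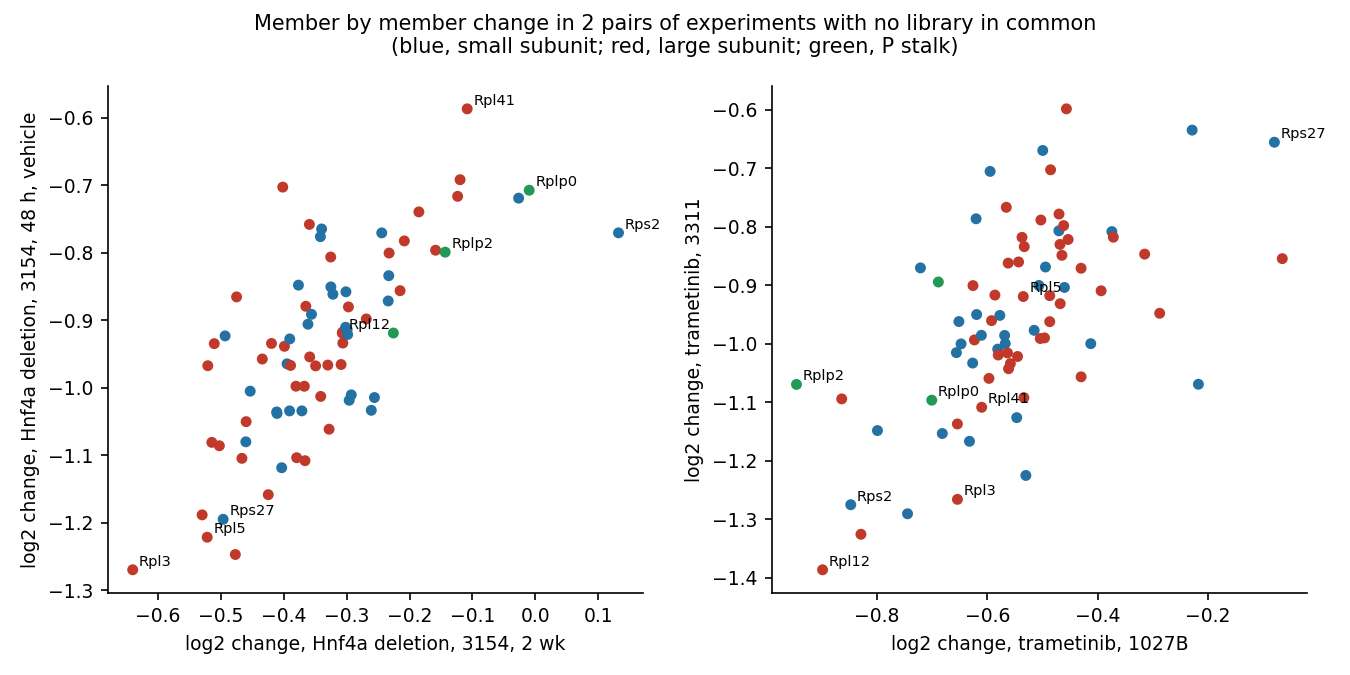
Log2 change of the 77 standard genes in 1 experiment against another, 1 point per gene, with small subunit genes in blue, large subunit genes in red and stalk genes in green. Both panels slope upward, the left one for the deletion at 2 weeks (x axis) and 48 hours (rho 0.69) and the right one for trametinib in 1027B (x axis) and 3311 (rho 0.59), with Rpl3 at the lower left of the former and Rpl12 of the latter.

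Since TOP tracts are the best known shared feature of these mRNAs, start sites were read for the members that RefSeq's promoter table held (65 of the 90 mouse members, 77 promoters, GRCm38.p6). The 11 shown include the start of Rps6 and of the 4 standard genes with the lowest trametinib values in 3311 (Rpl12, Rpl27a, Rpsa and Rps2). They also include those of the 4 lowest in 1027B (Rplp2, Rpl12, Rpl14 and Rps2), of Rps27 and of the paralogs Rpl22l1, Rps27l and Rpl7l1. Rps27 moved with the deletion and little in 1027B. Rpl22l1 fell with the deletion and in 1027B and overlapped in 3311. Rps27l and Rpl7l1 were called lower in no mouse comparison with vehicle. Each is 50 bases from 5′ to 3′, with the 25 bases from the annotated start onward in capitals.
Rps6: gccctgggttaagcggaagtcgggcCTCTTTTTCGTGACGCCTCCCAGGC
Rplp2: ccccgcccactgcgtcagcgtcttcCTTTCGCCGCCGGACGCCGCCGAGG
Rpl14: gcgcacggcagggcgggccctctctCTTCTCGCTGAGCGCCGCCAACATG
Rps27: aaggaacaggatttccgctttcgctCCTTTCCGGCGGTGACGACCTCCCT
Rpl12: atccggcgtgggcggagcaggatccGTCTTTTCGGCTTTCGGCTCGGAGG
Rpl27a: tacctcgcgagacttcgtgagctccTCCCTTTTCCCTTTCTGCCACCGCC
Rps2: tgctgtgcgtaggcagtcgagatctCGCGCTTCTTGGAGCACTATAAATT
Rpsa: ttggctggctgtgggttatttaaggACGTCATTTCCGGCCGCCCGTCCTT
Rpl22l1: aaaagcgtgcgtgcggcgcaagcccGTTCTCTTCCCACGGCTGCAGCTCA
Rps27l: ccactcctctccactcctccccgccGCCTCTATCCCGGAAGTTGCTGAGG
Rpl7l1: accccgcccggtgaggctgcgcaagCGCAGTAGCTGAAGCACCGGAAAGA

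The windows of the large subunit genes shown lie at chr2:32961687-32961736 (Rpl12), chr9:120571492-120571541 (Rpl14), chr7:109519170-109519219 (Rpl27a) and chr7:141447626-141447675 (Rplp2), all on the plus strand. Those of Rps6 at chr4:86857343-86857392 and Rps27 at chr3:90213624-90213673 are on the minus strand, and those of Rps2 at chr17:24720038-24720087 and Rpsa at chr9:120127741-120127790 on the plus strand. Those of the paralogs lie at chr3:28805483-28805532 (Rpl22l1, plus), chr9:66946061-66946110 (Rps27l, plus) and chr17:46782632-46782681 (Rpl7l1, minus). In Rps6, Rplp2, Rpl14 and Rps27 a C followed by 4 or more C or T bases stood at the annotated start. In Rpl12, Rpl27a, Rps2, Rpl22l1 and Rps27l it began within 5 bases of it, and in Rpsa and Rpl7l1 none did. Rplp0 and Rps12, which were also among the lower values with trametinib in both lines, had none there either. On the sense strand such a tract stood at the start of 18.2% of the 77 member promoters and 2.51% of all 32851 promoters in the table, and within 5 bases of it in 42.9% and 18.3%. The sequence CCGGAAG, a core bound by ETS factors, was found on either strand of the 300 bases in 33.8% of member promoters and 8.86% of all, and TATAAA upstream of the start in 1.30% and 1.91%.

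The changes of genes with and without the tract were set side by side, with no test. Where nearly all genes fell, the counts of both groups had little room to differ. Of 57 standard genes with a promoter, 27 had a tract within 5 bases of a start and 30 did not. After the deletion at 48 hours with vehicle 27 of 27 and 29 of 30 fell, with median log2 changes of -0.94 and -0.92. In 3311 all of both groups fell (-0.99 and -0.97), and in 1027B 22 of 27 and 22 of 30 fell (-0.57 and -0.53). With CCGGAAG 23 of 24 fell at 48 hours and without it 33 of 33, with medians of -0.88 and -0.96. A match to these letters is not a mapped start site or a bound factor.

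Genes that work beside the ribosome were counted from lists. Of 19 translation factors and companions with TOP mRNAs, 17 fell and 0 rose after the deletion at 48 hours with vehicle, with a median of -0.78, and 14 fell under MRTX1133, where 15.7% and 14.5% of all genes fell. At 2 weeks 0 were called with edgeR (median -0.34). In 3311, 11 of 19 fell (median -0.72), in H358 6 (-0.23) and in 1027B 4 (-0.22), where 19.6%, 23.2% and 13.2% of all genes fell; the last 2 counts lay near those shares. Eef1b2, an exchange factor for eEF1A, fell by 1.06 after the deletion at 48 hours, by 0.68 in 1027B, by 0.97 in 3311 and by 0.84 in H358, and Eef2, the translocase, was at -0.93 (adjusted p = 0.0236), -0.37 (0.189), -0.57 (0.0714) and -0.03 (0.815), with adjusted p in brackets.

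The other lists are to be read against all genes tested, of which 15.7% fell and 15.3% rose at 48 hours with vehicle, 19.6% and 19.4% in 3311, 13.2% and 13.5% in 1027B, and 23.2% and 23.5% in H358. Of 22 ribosome assembly factors 1 fell and 2 rose after the deletion at 48 hours with vehicle (median 0.20), 4 fell and 4 rose in 3311 (-0.04), 6 fell and 1 rose in 1027B (-0.35), and 17 fell and 0 rose in H358 (-0.61). Of 78 mitochondrial ribosomal proteins 15 fell and 0 rose at 48 hours (-0.21), 11 fell and 6 rose in 3311 (-0.01), 4 fell and 1 rose in 1027B (-0.12), and 53 fell and 1 rose in H358 (-0.50). At 48 hours, in 3311 and in 1027B the counts of mitochondrial ribosomal proteins that fell were near or below the share of all genes. The cytosolic set had medians between -0.93 and -0.95 in the 2 mouse experiments where the mitochondrial set stood at -0.21 and -0.01.

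Of 15 genes that control ribosomal protein mRNAs, 3 fell and 2 rose at 48 hours with vehicle, 3 fell and 2 rose in 3311, 5 fell and 0 rose in 1027B, and 8 fell and 3 rose in H358. The counts at 48 hours and in 3311 were near the shares of all genes. Eif4ebp1, the mTORC1 target that restrains cap-dependent translation, fell in each: by 2.30 at 48 hours (adjusted p = 0.000214), 1.03 at 2 weeks (0.0173), 1.36 in 1027B (0.00905), 1.80 in 3311 (0.000834) and 1.75 in H358 (0.000548), with adjusted p in brackets. Myc went in different directions: it rose by 0.91 after the deletion at 48 hours (adjusted p = 0.0295), fell by 0.88 in 1027B (adjusted p = 0.0375) and by 1.44 in H358 (adjusted p = 0.000111), and was at -0.23 in 3311 (adjusted p = 0.386) and 0.27 at 2 weeks (adjusted p = 0.306).

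Ribosomal protein genes have many processed pseudogenes and near copies, and reads they share can be split or dropped. In GENCODE M21, a median of 28% of the 100-base windows of a standard member's exons also occurred in another gene, from 0 to 83.6% (Rpl36a). Of the 17 genes under 10% and the other 60, 16 of 17 and 60 of 60 fell at 48 hours with vehicle, with medians of -0.94 and -0.93. In 3311 it was 17 of 17 and 60 of 60, with -0.95 and -0.96. As nearly all genes fell, these counts had little room to differ. The rho of log2 change with the share of such windows was -0.17 at 48 hours with vehicle and -0.24 under MRTX1133. With trametinib it was -0.14 in both 3311 and 1027B, and at 2 weeks it was 0.02. The part of shared reads in the changes was not tested. Rows named as pseudogenes of a member held between 1.05 and 2.79 counts per 100 member counts.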

How the data were processed

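RNA was measured in 34 libraries of 7 tables. Per the labels' protocols, Trizol and PureLink columns were used for extraction, and libraries were poly(A)-selected, strand-specific and sequenced as read pairs. The authors deposited raw read counts per Ensembl gene, without normalization. The submitters' processing notes name cutadapt 3.5, STAR 2.7.6a and featureCounts 1.6.3 and the builds mm10, mm39 and hg38. Which build made which table is not given in the sources used here. Per the file headers, the columns of the 3311 table name treatment and replicate but no line, and they were assigned to 3311 since no other table lacked the name of its line.

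Each table was fitted alone in R 4.3.3 with edgeR 4.0.16 (filterByExpr, TMM, quasi-likelihood F-test, Benjamini-Hochberg over all genes tested in the table), and a gene was called at an adjusted p under 0.05. The 6 libraries of 1027B shared 1 fit, as did the 8 of the 48-hour 3154 table. CPM are counts over the library total times its TMM factor, which includes all genes. Between 85 and 89 members per table passed filterByExpr, of 86 to 90 listed. Fits were tested on simulated data. Replicates of a group differed by more than counting noise in every group (chi-square divided by its degrees of freedom, 5.9 to 87.9). In 1027B same-numbered libraries deviated together in each pair of groups (correlations 0.33, 0.50 and 0.56). Values with the replicate number as a block therefore stand beside the 1027B results whose count they move by more than 1.5 times. The mitochondrially encoded share of the 1027B libraries also followed the number (3.31% to 3.49% in replicates 1, 1.50% to 2.00% in replicates 2).

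The members and lists were chosen with earlier results of these data known. Named genes were the 2 largest called rises and falls of each comparison, the paralogs with their partners, Rps6, the stalk genes, Rpl5, Rpl11, Rps19, Rpsa, Rpl29, Rps27a and Rpl13a, the member called most often in 1 direction, and the 3 non-members nearest to the members' median pattern. Rps2, Rpl41, Rpl12, Rpl21, Rpl37a and RPL17, where outside this rule, were named after their values were seen. Lists covered translation factors, control of ribosomal protein mRNAs, ribosome assembly and mitochondrial ribosomal proteins. Of the mouse identifiers, 96.8% to 99.9% were found in GENCODE M21 (GRCm38), from which gene places, transcripts and shared windows were taken. Alternatives were DESeq2 1.42.0, other size factors, library totals, no count filter, the replicate block and each library left out. Some items are not reported here.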

Additional observations from a re-analysis of the deposited data

Results flagged for a closer look

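Under trametinib the log2 changes of 2 paralogs had opposite signs in 3311 and in H358, with both treated libraries on 1 side of both vehicle libraries in each case. Rpl7l1 had a log2 change of 0.6067 in 3311 and RPL7L1 one of -0.4271 in H358, while in 1027B and H1651 the groups overlapped (0.01 and -0.08). Rps27l had -0.2549 in 3311 and -0.2924 in 1027B, neither past the test, while RPS27L had 0.8151 in H358 and 0.01 in H1651, where the groups overlapped. The cultures were deposited in separate tables of separate species, at trametinib doses of 50 nM, 10 nM and 20 nM, and the differences between them were not tested.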

How the results depend on the processing

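The counts of members called kept within 1.5 times, or at 0, under other size factors, TMM without the members, no count filter and added pseudogene counts in all 13 comparisons. No result changed direction. For the 2-week deletion (2 lower) the count was 1 among the standard genes, 1 with library totals, 13 with DESeq2, 45 with the replicate block (16.8% of all genes fell with it) and 0 to 14 with a library left out. For the deletion under MRTX1133 (78) it was 47 to 75 and for trametinib in 1027B (61) 5 to 36 with a library left out. For MRTX1133 after 4OHT (0) it was 8 when only those groups were fitted and 17 with crossed replicate numbers, an alternative chosen after seeing the data, as were the added pseudogene counts and the standard genes alone. For MRTX1133 in 1027B (0) it was 1 with DESeq2 and 54 with the replicate block. For MRTX1133 against trametinib (0) it was 4 with DESeq2 and 62 with the block. For doxycycline in H1651 (0) it was 1 with DESeq2 and 26 higher with the block (9.28% of all genes rose with it). The cause of these shifts was not tested. The block left the other 9 comparisons within 1.5 times. Outside 1027B, the 48-hour 3154 pairs had correlations of -0.43 to 0.72. The other tables have 1 pair of groups each, at 0.52 for 3154 at 2 weeks, 0.44 for H358 and 0.18 for 3311. In H1651 the correlation was 0.77 for trametinib and 0.48 for doxycycline. A single pair cannot show whether same-numbered libraries belong together, and no label pairs them.

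Library totals without scaling moved the median of all genes by 0.21 after the deletion at 48 hours with vehicle, by 0.15 in both other deletion comparisons, by 0.14 in 3311 and by 0.13 in H358. The members' medians were then -0.74, -0.21 at 2 weeks, -0.70 under MRTX1133, -0.81 and -0.35. Of single named genes, 110 of 112 kept their side of the threshold with DESeq2 and 104 of 112 with library totals. With 2 libraries a group single libraries weighed on the calls: of 448 values of named genes with a library left out, 90 lost their call. Mature ribosomal protein levels, and translation, were not measured.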

Other observations

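Rps2 and Rpl29 stood at different levels in the mouse lines, on a scale of CPM per kilobase of the median GENCODE M21 coding transcript in the vehicle libraries. The scale depends on that annotated length. Rps2 was at 2020 ± 224 in 1027B (SD, n = 2), the highest of the standard genes there, and at 588 ± 44.0 and 656 ± 92.4 in the 2-week and 48-hour 3154 tables and 821 ± 166 in 3311. Rpl29 was at 732 ± 99.7 in 3311 and at 152 ± 2.73, 123 ± 0.820 and 110 ± 2.67 in the 2-week 3154, 48-hour 3154 and 1027B tables. The tables were normalized separately and the lines differ in culture form and alleles, so no test was made. Both genes have copies elsewhere, with 43.8% and 23.5% of their windows shared, and how such reads were counted in each table was not tested.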
